A study of Ovis aries with 24 samples.

Results

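The comparison is of sorted with unsorted cells of the sheep pituitary, both given vehicle, and it asks what sorting on green fluorescent protein (GFP) enriched and depleted in the absence of added estradiol (E2). It rests on 12 of the 24 RNA-seq libraries of the series: all 6 sorted vehicle and all 6 unsorted vehicle libraries, taken by their labels. Pituitaries of ovariectomized ewes of the Western white faced breed were dispersed into single cells and grown on plastic. An adenovirus that drives GFP transcription in gonadotropes was added 24 hours after dispersal, and 3 days after infection the cells received ethanol, the vehicle, for 6 hours. Sorted libraries come from cells collected for GFP by fluorescence-activated sorting, and unsorted libraries from the mixed cells of the same kind of culture. All 12 libraries therefore share the ovariectomy, the culture, the infection and the ethanol, and each was made from 500 ng of total RNA. The remaining 12 libraries received 10 nM E2 for the same time and enter only the last comparison. The labels name neither the promoter of the virus nor the number of ewes, and leave out whether the unsorted cells also went through a sorter, so enrichment and handling in the sorter cannot be told apart. Nor do they say that replicates came from separate animals or cultures, so p-values measure the spread between these libraries, which may be technical.

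Gonadotropes are the pituitary cells that make luteinizing hormone (LH) and follicle-stimulating hormone (FSH). Both hormones are pairs of a shared alpha subunit, encoded by CGA, with a beta subunit of their own, encoded by LHB and FSHB. Thyrotropin, the hormone of thyrotropes, has the same alpha subunit, so CGA is not particular to gonadotropes. Gonadotropin-releasing hormone (GnRH) from the hypothalamus acts on its receptor, encoded by GNRHR, raises calcium and kinase activity in the cell and releases stored hormone, and NR5A1 encodes a transcription factor that these genes need. The same gland holds lactotropes, somatotropes, corticotropes and thyrotropes, which make other hormones, along with SOX2-expressing folliculostellate and stem cells, fibroblasts, vessel cells and macrophages. In culture on plastic the non-endocrine cells attach, spread and can divide.

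Total counts were 5753599 to 6189629 in sorted replicates 1 to 3, 19216735 to 22496970 in sorted replicates 4 to 6, 5032744 to 5644868 in unsorted replicates 1 to 3 and 33153515 to 37042448 in unsorted replicates 4 to 6. Each group thus holds 3 shallow and 3 deep libraries, and the labels name no batch. The first principal component of log2 CPM (counts scaled to the size of the library) held 54.2% of the variance and had opposite signs in sorted and unsorted libraries. The second, with 18.6%, had opposite signs in replicates 1 to 3 and 4 to 6. Of 14468 genes with enough counts for testing, 7267 (50.2%) passed, 3529 (24.4%) with the higher level in sorted libraries and 3738 (25.8%) with the lower, at a Benjamini-Hochberg adjusted p under 0.05 in edgeR's quasi-likelihood test, and the median log2 difference was 0.02. These shares are the background for every list below. In a fit that pairs the libraries by replicate number, 4695 genes (32.5%) passed as higher and 4503 (31.1%) as lower. Those shares are the background for list counts given with the replicate block.

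The change was lopsided in size. A stricter edgeR test, which asks whether a difference exceeds 2-fold, passed 1192 genes (8.24%), 150 (1.04%) of them higher and 1042 (7.2%) lower in the sorted cells. With the replicate number as a block, which pairs the libraries, the same test passed 276 genes (1.91%) as higher and 1243 (8.59%) as lower. It passed 57 as higher and 691 as lower in replicates 1 to 3 alone, and 242 and 1648 in replicates 4 to 6 alone. The 1042 depleted genes took 13 to 17.1% of all counts in unsorted libraries and 2.63 to 3.99% in sorted ones. The 150 enriched genes took 0.382 to 0.577% of counts in unsorted and 1.32 to 2.24% in sorted libraries. These genes were chosen on the same libraries, so their shares only describe the choice. Fewer cells of a type and less RNA per cell cannot be told apart in such bulk libraries, here or in any result that follows.

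**Figure D1:**
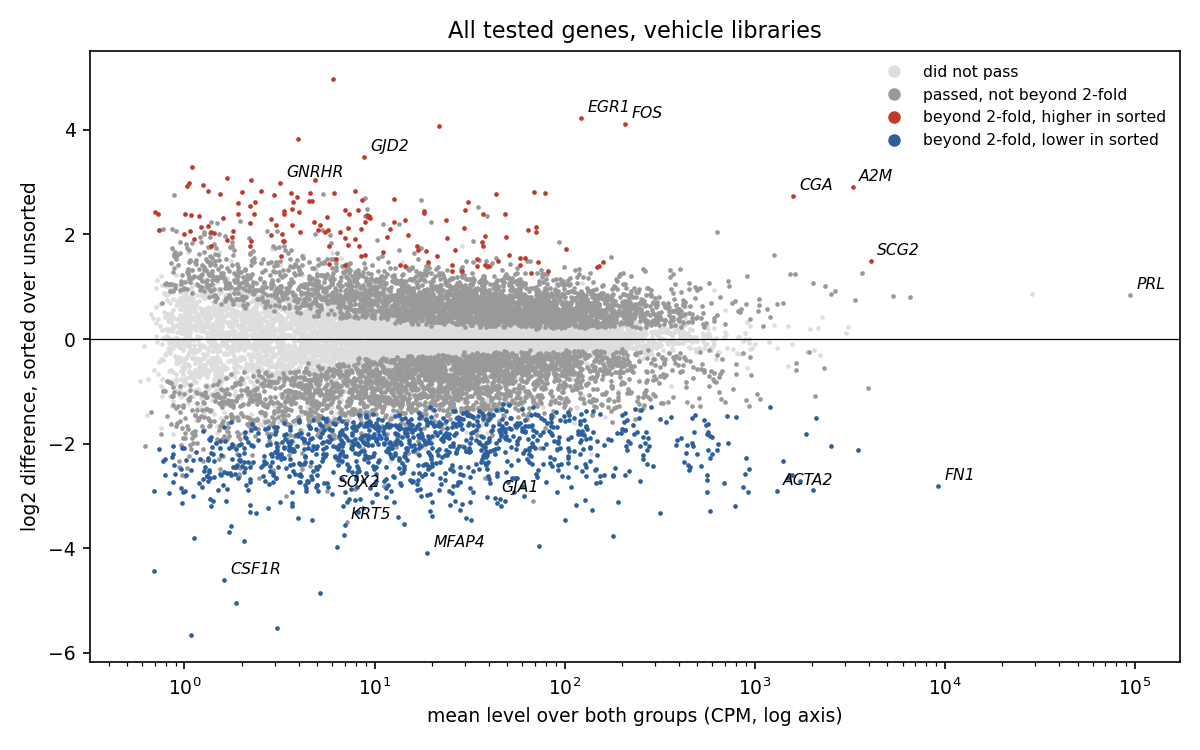
Each point is 1 of 14468 tested genes, placed by its mean CPM over both groups (log axis) and its log2 difference of sorted over unsorted vehicle libraries; red and blue mark genes beyond 2-fold. The 1042 blue points reach far into the abundant genes, FN1 among them, while CGA, A2M, SCG2, EGR1 and FOS stand out among the 150 red ones.

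The 5 gonadotrope marker genes were higher in every sorted library than in the unsorted library of the same number. CGA ranged from 1920 CPM through a median of 2820 to 3600 CPM in sorted libraries, and from 175 through 401 to 634 CPM in unsorted ones. The groups did not overlap, and CGA rose by 2.74 ± 0.28 (log2 ± standard error, SE; adjusted p = 3.81e-06, edgeR), which leaves unsorted cells with a mean of 417 ± 171 CPM (SD, n = 6) against 2783 ± 730 CPM in sorted cells. GNRHR ranged from 3.64 through 5.03 to 10.2 CPM in sorted and from 0.445 through 0.639 to 1.05 CPM in unsorted libraries. It too separated the groups and had the largest rise of the 5 markers, by 2.98 ± 0.32 (adjusted p = 4.4e-06). NR5A1 ranged from 11.8 through 33 to 40.8 CPM in sorted and from 2.07 through 5.16 to 9.48 CPM in unsorted libraries. Its lowest sorted library, replicate 2, lay just above the highest unsorted one, and it rose by 2.45 ± 0.37 (adjusted p = 0.000103).

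The fitted rises of the beta subunits were smaller and had wider errors, but differences between markers were not tested. In replicates 1 to 3 alone LHB rose by 2.75 and CGA by 2.70, and in replicates 4 to 6 alone by 1.76 and 2.77. LHB ranged from 437 through 1020 to 1750 CPM in sorted libraries and from 83.1 through 139 to 601 CPM in unsorted ones. FSHB ranged from 75.2 through 150 to 213 CPM in sorted and from 21.6 through 29.6 to 86.5 CPM in unsorted libraries. For both genes the groups overlapped, because unsorted replicate 5 lay above sorted replicates 1 and 2. LHB rose by 2.06 ± 0.53 (adjusted p = 0.00698) and FSHB by 1.86 ± 0.40 (adjusted p = 0.00186). Within same-numbered pairs the log2 ratio of LHB ran from 1.54 in pair 5 to 4.08 in pair 3, a wider span than that of CGA, which ran from 2.45 to 3.56. Pair 3 had the largest ratio for CGA, LHB, FSHB and NR5A1, and pair 1 for GNRHR.

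Of 10 gonadotrope markers tested, 6 rose and 0 fell, with a median of 1.41 on the log2 scale. The members that did not pass were these: the homeobox genes PITX1 and ISL1 differed by -0.32 and 0.34, the inhibin subunit gene INHA by -0.14 and the kisspeptin receptor gene KISS1R by 0.08. In replicates 4 to 6 alone ISL1 passed as higher and PITX1 as lower. The summed level of 13 listed features, CGA among them, was 2760 to 5850 CPM in sorted libraries and 456 to 1570 CPM in unsorted ones. The label of the sorted cells thus goes with the markers that rose, while the unsorted libraries hold gonadotrope transcripts as well. Nor did the sorted libraries hold gonadotrope transcripts alone: the prolactin gene PRL averaged 121700 CPM there, against 2783 CPM for CGA.

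**Figure D2:**
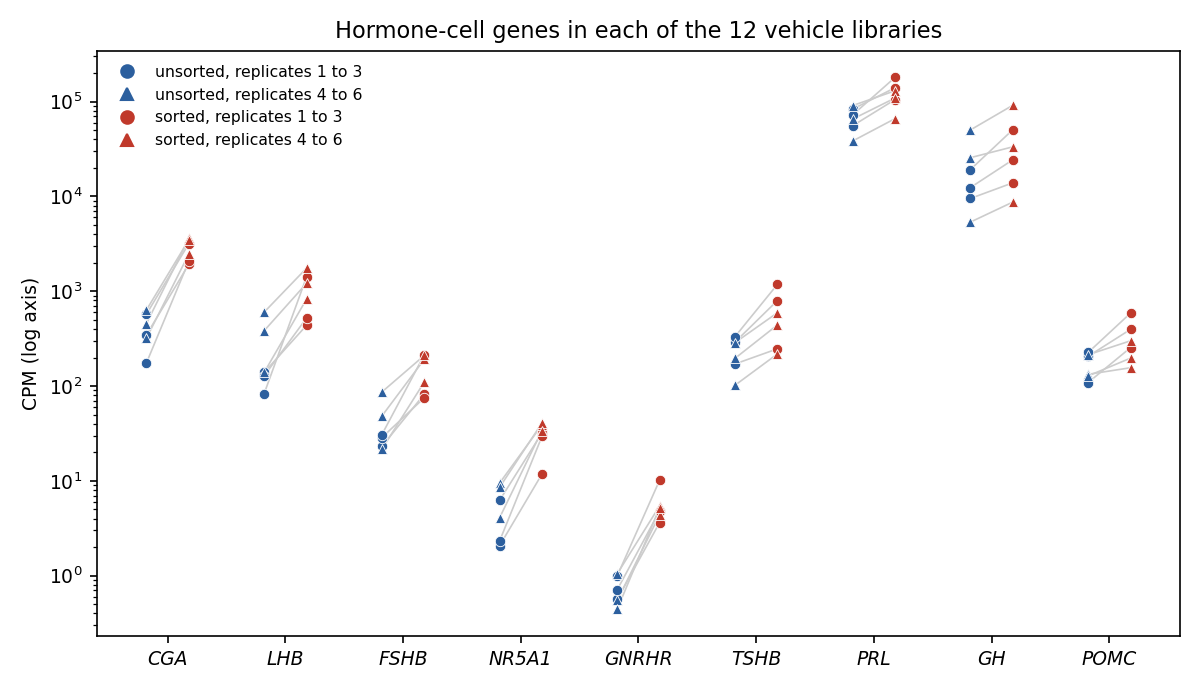
CPM (log axis) of 9 hormone-cell genes in each of the 12 vehicle libraries; grey lines join libraries of the same replicate number, circles are replicates 1 to 3 and triangles 4 to 6. All lines rise from unsorted (blue) to sorted (red), most steeply for CGA, LHB, NR5A1 and GNRHR.

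Genes of the other hormone cells were also more abundant in sorted libraries, although less so than the gonadotrope genes. PRL, the prolactin gene of lactotropes, ranged from 66100 through 119000 to 180000 CPM in sorted and from 38400 through 68900 to 90700 CPM in unsorted libraries. Its groups overlapped only through sorted replicate 6, the lowest, and the rise of PRL was 0.85 ± 0.24 (adjusted p = 0.00928). TSHB, which encodes the beta subunit of thyrotropin, ranged from 218 through 517 to 1180 CPM in sorted and from 102 through 242 to 332 CPM in unsorted ones, a rise of 1.33 ± 0.42 (adjusted p = 0.0184). POMC, the precursor gene of corticotropin, ranged from 156 through 277 to 588 CPM against 109 through 169 to 226 CPM. Its rise of 0.90 ± 0.30 (adjusted p = 0.0245) no longer passed when sorted replicate 3 or unsorted replicate 2, 5 or 6 was dropped (adjusted p at most 0.0575). GH, which encodes growth hormone, spread from 8710 to 91400 CPM in sorted and from 5360 to 50200 CPM in unsorted libraries, and its difference of 0.86 passed only with the replicate block (adjusted p = 0.265 without and 0.000225 with it). Sheep carry near-identical copies of this gene, so its counts are uncertain. All of PRL, TSHB, POMC and GH were higher in sorted libraries in 6 of 6 pairs, but neither depth set alone passed TSHB or POMC.

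The markers of these cells beyond their hormones went partly the other way. Of 7 lactotrope markers 5 rose, among them the prolactin receptor gene PRLR by 1.24 ± 0.13 and the dopamine receptor gene DRD2 by 0.63 ± 0.20, and 1 fell: ANXA1, annexin A1, by 1.87 ± 0.24. ANXA1 is also abundant in folliculostellate cells. Of 7 thyrotrope markers 3 rose, TSHB, the thyrotropin-releasing hormone receptor gene TRHR by 0.87 ± 0.18 and the retinoid X receptor gene RXRG by 0.73 ± 0.19. The 2 others that passed fell, among them the T-box factor gene TBX3 by 0.43 ± 0.12. Their summed level was 379 to 1340 CPM in sorted libraries and 246 to 460 CPM in unsorted ones, overlapping. Of 8 somatotrope markers 3 rose, or 6 with the replicate block, and POU1F1, the transcription factor of somatotropes, lactotropes and thyrotropes, rose by 0.85 ± 0.10 (adjusted p = 7.24e-06). Of 7 corticotrope and melanotrope markers 3 rose, or 6 with the block, and 1 fell.

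Together 7 hormone genes (CGA, LHB, FSHB, TSHB, PRL, GH and POMC) made up 8.93 ± 2.68% of the unsorted and 16.05 ± 4.04% of the sorted counts (SD, n = 6; 7.12 percentage points higher, exact two-sided permutation test, p = 0.0108, adjusted over 3 shares p = 0.0152). The share was higher in 6 of 6 pairs. Without PRL in the counts the difference was 2.32 points and did not pass (adjusted p = 0.224, exact permutation test), and sorted replicate 6 stood at 8.54% where the other sorted libraries had 15.9 to 19.7%. Unsorted replicate 6 was also the lowest of its group, at 4.61%.

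The secretory machinery rose as a group. Of 30 tested genes for granins, prohormone processing and vesicle release 22 (73.3%) rose and 2 fell, with a median of 0.84. SCG2, secretogranin II, was the most counted of the genes enriched beyond 2-fold. It ranged from 5590 through 5810 to 6880 CPM in sorted and from 1790 through 1890 to 3100 CPM in unsorted libraries, with a wide gap between the groups, and rose by 1.49 ± 0.14. PCSK1, the prohormone convertase that makes the first cuts in peptide precursors, ranged from 50 through 123 to 174 CPM against 13.1 through 16.5 to 22.4 CPM. Its rise of 2.81 ± 0.27 was the largest of the list and separated the groups in every library. Granule sorting and trimming genes rose by about a log2 unit, SCG3 by 1.24 ± 0.12, SCG5 by 1.08 ± 0.11 and carboxypeptidase E (CPE) by 1.00 ± 0.09. The calcium sensor genes SYT4 and SYT1 rose by 1.26 ± 0.12 and 1.48 ± 0.17, and SNAP25, part of the fusion complex, by 1.25 ± 0.13. The 2 that fell were CADPS2, a priming factor of dense-core vesicles, by 1.35, and DOC2B, a calcium-sensing priming protein, by 0.67.

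Genes of electrical excitability were higher too. Of 22 calcium, sodium and pacemaker channel genes 16 (72.7%) rose and 2 fell, with a median of 0.96, and the second fall was lost in 11 of 12 refits with 1 library dropped. NALCN, the sodium leak channel, rose by 1.20 ± 0.12 (adjusted p = 1.72e-06), the sodium channel gene SCN8A by 0.98 ± 0.12 and the auxiliary calcium channel subunits CACNB2 and CACNA2D2 by 0.98 ± 0.12 and 1.07 ± 0.14. CACNA1D, which encodes an L-type calcium channel, averaged 9.58 ± 2.29 CPM in unsorted and 23.6 ± 4.46 CPM in sorted cells. Of 23 potassium channel genes 13 rose and 2 fell, and the falls came to 1 in 6 of those 12 fits. KCNK3, a background potassium channel, rose by 1.87 ± 0.29, KCNH7 by 1.78 ± 0.30 and the calcium-activated channel gene KCNN2 by 1.13 ± 0.11. KCNIP1, an auxiliary subunit of voltage-gated potassium channels, went against its list and fell by 2.86 ± 0.35, to 14% of its unsorted level.

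Genes of receptors for fast transmitters included several of the largest rises. Of 23 ligand-gated and GABA receptor genes 12 rose and 2 fell, with a median of 0.84, and in replicates 1 to 3 alone 7 of 15 tested rose. The falls came to 1 in 10 of 12 refits with 1 library dropped. The GABA receptor subunit gene GABRA3 rose from 1.97 ± 0.65 to 13.7 ± 7.73 CPM, a difference of 2.84 ± 0.41. The glutamate receptor gene GRIA2 rose by 2.68 ± 0.34 and the kainate receptor gene GRIK2 by 1.12.

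Of 24 synaptic adhesion and scaffold genes 17 (70.8%) rose and 2 fell, with a median of 1.02, and the falls came to 1 in 9 of 12 refits with 1 library dropped. The presynaptic adhesion gene NRXN3 rose by 2.31 ± 0.34, the ankyrin gene ANK3, which anchors channels, by 1.08 ± 0.12, CNTN4 by 1.04 and DLG2 by 0.84. NCAM1, the neural cell adhesion molecule, moved the other way, from 142 ± 25.7 CPM in unsorted to 48.5 ± 7.02 CPM in sorted libraries, and fell by 1.54 ± 0.14. The axon guidance receptor genes DCC and UNC5D rose by 2.46 ± 0.29 and 2.79 ± 0.38, and RELN, a secreted guidance protein, rose by 2.79 ± 0.20, from 19.7 ± 4.75 to 138 ± 31.5 CPM.

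Factors that set a neuroendocrine expression programme were higher at a smaller scale. Of 18 such transcription factor genes 11 rose and 1 fell, with a median of 0.64, and 7 rose when sorted replicate 4 was left out. ST18, a zinc finger factor, led them with a rise of 2.77 ± 0.19, from 11.3 ± 2.87 to 76.2 ± 13.8 CPM, and its relative MYT1 rose by 0.94 ± 0.18. LHX4, a LIM-homeobox factor of pituitary development, was low in both groups, at 2 ± 0.50 and 0.69 ± 0.23 CPM, and rose by 1.47 ± 0.28. Of 15 neuronal RNA-binding and splicing genes 9 rose and 2 fell. The HuB and HuD genes ELAVL2 and ELAVL4 rose by 1.18 ± 0.12 and 0.97 ± 0.13, and the epithelial splicing factor ESRP1 by 0.79 ± 0.15, while RBFOX2 fell by 0.60 ± 0.09.

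The largest rises of all genes with a symbol and at least 10 CPM were in immediate-early genes, which are transcribed within minutes of a stimulus. EGR1, a zinc finger factor that GnRH induces, ranged from 132 through 248 to 301 CPM in sorted and from 7.23 through 11.4 to 16.8 CPM in unsorted libraries. FOS, a subunit of the AP-1 factor, ranged from 296 through 367 to 565 CPM against 14.9 through 24.7 to 28 CPM. For both genes the lowest sorted library lay several-fold above the highest unsorted one. EGR1 rose by 4.23 ± 0.27 (adjusted p = 5.85e-08) and FOS by 4.12 ± 0.22 (adjusted p = 1.89e-08), and their pair ratios stayed within 3.80 to 4.61 and 3.38 to 4.85. FOSB rose by 4.07 ± 0.38. Outside the 15 largest rises under that rule, the phosphatase gene DUSP2 rose by 3.83 ± 0.40 and the activity-induced factor NPAS4 by 2.40 ± 0.31.

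The immediate-early list did not move as one. Of 35 members 15 rose and 11 fell, with a median of 0.17. Below the leading group the orphan nuclear receptor gene NR4A1 rose from 19.8 ± 7.9 to 57.2 ± 9.19 CPM and the RNA-decay factor gene ZFP36 by 1.24 ± 0.15. On the other side MYC, a driver of growth, fell by 2.08 ± 0.11, from 113 ± 11.4 to 26.6 ± 4.37 CPM, and DUSP6, a phosphatase of the kinase ERK, by 1.84 ± 0.14. CYR61 and CTGF, matricellular genes that respond to serum and to spreading, fell, with differences of -1.85 ± 0.16 and -2.13 ± 0.22, IER3 by 2.09 ± 0.40 and the pseudokinase gene TRIB1 by 1.10 ± 0.10. The labels do not give the handling of each group between treatment and lysis, and its part in these differences was not tested.

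**Figure D3:**
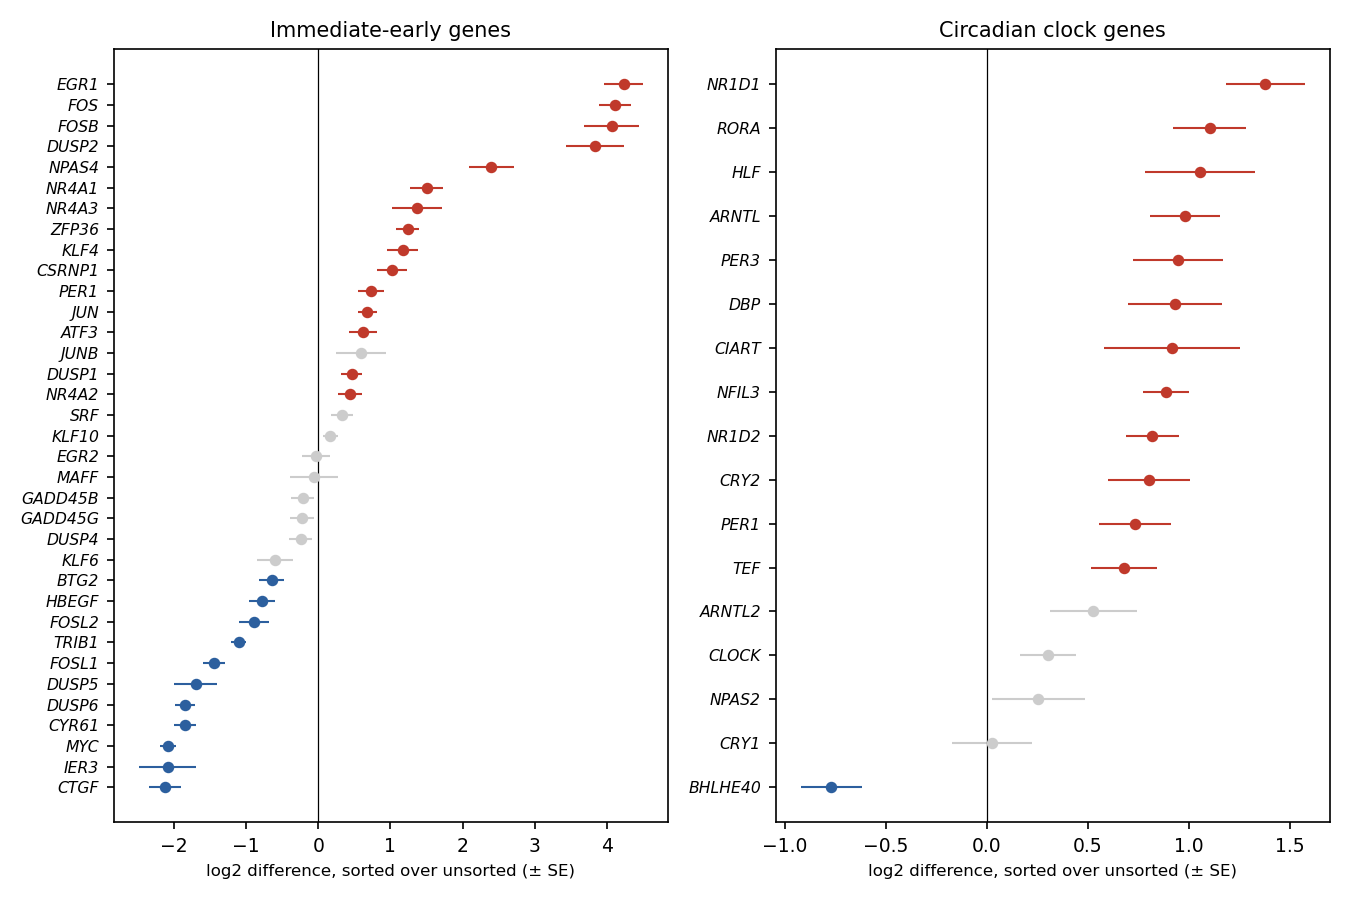
Log2 difference of sorted over unsorted vehicle libraries with its SE for each tested immediate-early gene (left) and circadian clock gene (right); red and blue passed the edgeR test as higher and lower, grey did not pass. Immediate-early genes run from EGR1, FOS, FOSB and DUSP2 near 4 down to MYC and CTGF near -2, while 12 of 17 clock genes lie above 0 and passed.

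Most clock genes were higher in sorted cells. Of 17 tested, 12 (70.6%) rose and 1 fell, with a median of 0.82. NR1D1, a repressor of the core loop, ranged from 29.7 through 41.3 to 53 CPM in sorted and from 9.98 through 16 to 20.5 CPM in unsorted libraries, without overlap, and rose by 1.38 ± 0.19 (adjusted p = 5.09e-05). RORA, which acts on the same DNA elements as NR1D1 but activates, rose by 1.10 ± 0.18, NR1D2 by 0.82 ± 0.13, the core activator ARNTL by 0.98 ± 0.17 and the repressor NFIL3 by 0.89 ± 0.11. BHLHE40, which represses clock promoters and is also raised by serum and low oxygen, fell by 0.77 ± 0.15. The labels give no time of day for either group.

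Protease inhibitors and gap junction genes stood out among the named rises. A2M, alpha-2-macroglobulin, a broad protease inhibitor, ranged from 2510 through 5830 to 8670 CPM in sorted and from 505 through 715 to 1120 CPM in unsorted libraries. The groups were far apart, and A2M rose by 2.91 ± 0.29. The inhibitors SLPI and PI3 differed by similar amounts, 2.69 ± 0.69 and 2.66 ± 0.81 (adjusted p = 0.00566 and 0.0166), but varied so widely between libraries that their groups overlapped. PI3 averaged 4.57 ± 3.84 CPM in unsorted cells and 30.5 ± 34.6 CPM in sorted ones. SLC7A14, an amino acid transporter gene, rose by 2.66 ± 0.21. With the replicate block both SLPI and PI3 passed edgeR's stricter 2-fold test (adjusted p = 0.00235 and 0.000207). Without the block neither passed the stricter test (adjusted p = 0.0648 and 0.149). Abundant genes that passed it included ZNF292, a zinc finger gene, higher by 1.47, the co-chaperone gene DNAJC12 by 1.38, KIAA0408 by 1.41 and TMTC2, an enzyme of protein mannosylation, by 1.30.

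Connexins, the proteins of gap junctions, changed in opposite directions. GJD2, the connexin of electrical synapses, ranged from 7.31 through 13.1 to 33.7 CPM in sorted and from 0.756 through 1.37 to 2.26 CPM in unsorted libraries, and rose by 3.47 ± 0.40. GJA1, the widespread connexin of folliculostellate cells and fibroblasts, ranged from 5.4 through 8.82 to 14.1 CPM in sorted and from 65 through 75.8 to 91 CPM in unsorted libraries, and fell by 3.04 ± 0.21. Neither gene overlapped between the groups. Of 10 connexin and pannexin genes tested, GJD2 alone rose and 7 fell, GJB2 by 2.89 ± 0.36 among them. A second member passed as higher when sorted replicate 2 was left out.

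Signalling genes moved in both directions. Of 36 genes of GnRH receptor signalling 12 rose and 13 fell, with a median of 0.07. PLCB4, a phospholipase that makes the calcium-releasing messenger, rose by 1.06 ± 0.11. ITPR3, one of the channels that this messenger opens, fell by 1.78 ± 0.15, the tyrosine kinase gene SRC by 0.89 ± 0.11 and the ERK kinase gene MAP2K1 by 0.69 ± 0.09. Of 34 genes of cyclic AMP signalling 10 rose and 12 fell, and 5 rose in replicates 1 to 3 alone. AKAP5, which anchors protein kinase A, rose by 2.28 ± 0.22, and the cyclase genes ADCY1 and ADCY5 by 1.10 and 0.98. Another cyclase gene, ADCY7, fell by 2.81 ± 0.27, the anchor AKAP12 by 1.65 ± 0.18 and the phosphodiesterase genes PDE5A and PDE4A by 2.53 ± 0.21 and 1.68 ± 0.12.

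Genes of the activin, inhibin, TGF-beta and BMP pathway fell more often than they rose. Of 35 tested, 5 rose and 19 (54.3%) fell, with a median of -0.58. The 5 that rose act in receiving or passing on the signal: the activin receptor genes ACVR1B and ACVR2B by 0.76 ± 0.10 and 0.87 ± 0.15, the co-receptor TGFBR3, betaglycan, which helps inhibin oppose activin, by 1.40 ± 0.22, SMAD9 by 1.11 ± 0.25, and SMAD1 by 0.38 ± 0.12. Ligand genes were among the falls: TGFB3 differed by -3.42 ± 0.33, INHBA, which encodes the subunit of activin A, by -2.49 ± 0.17, and TGFB1 by -1.98 ± 0.13. FSTL1, a follistatin-like secreted protein, fell by 2.40 ± 0.12, and the receptor gene TGFBR2 differed by -2.22 ± 0.18. Of 34 nuclear receptor and coregulator genes 13 rose and 5 fell (1 fell in replicates 1 to 3 alone), with the coactivator NCOA2 higher by 0.70 ± 0.09 and the corepressor NCOR1 by 0.54 ± 0.07.

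Among 12 markers of folliculostellate and stem cells 3 rose and 9 (75%) fell, with a median of -1.90, and their summed level was 2830 to 3620 CPM in sorted libraries and 6420 to 8440 CPM in unsorted ones. SOX2, the stem cell factor, ranged from 0.346 through 1.5 to 1.84 CPM in sorted and from 7.44 through 10.7 to 14.2 CPM in unsorted libraries. The groups were well separated, and SOX2 fell by 2.95 ± 0.29, to 12.4% of its unsorted level, with SOX9 down by 2.62 ± 0.27. The intermediate filament genes NES, KRT8 and VIM fell, with differences of -2.02, -1.99 and -2.05. The members that rose were ALDH1A1, a retinoic acid enzyme, by 0.57 ± 0.12, the calcium-binding gene S100B by 0.69 ± 0.20, and LHX3, a homeobox factor also needed by hormone cells, by 0.82 ± 0.29. LHX3 did not pass in 6 of 12 refits with 1 library dropped, namely sorted replicate 4 or 5 or unsorted replicate 1, 2, 3 or 6 (adjusted p up to 0.0729).

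Markers of mural cells fell throughout. All 8 tested pericyte and smooth muscle markers fell, with a median of -2.69 and a summed level of 565 to 1060 CPM against 3930 to 7730 CPM. ACTA2, smooth muscle actin, ranged from 190 through 325 to 387 CPM in sorted and from 1530 through 2310 to 2990 CPM in unsorted libraries. Every sorted library lay below every unsorted one, and the pair ratios of ACTA2 stayed within -3.11 to -2.75. It fell by 2.90 ± 0.20, TAGLN by 2.71 ± 0.19, CNN1 by 2.73 ± 0.21, and NOTCH3 differed by -2.92 ± 0.26. Of 12 fibroblast markers 8 (66.7%) fell and 1 rose, with a median of -2.06 and a summed level of 672 to 1420 CPM against 2820 to 8160 CPM. COL1A2, a chain of type I collagen, ranged from 139 through 216 to 305 CPM in sorted and from 848 through 1540 to 2490 CPM in unsorted libraries, and fell by 2.82 ± 0.26. DCN, decorin, was 0.93 ± 0.34 higher, and did not pass in 7 of 12 refits with 1 library dropped, namely sorted replicate 1, 2 or 6 or unsorted replicate 3, 4, 5 or 6 (adjusted p up to 0.0787).

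Marker transcripts of endothelial and blood-derived cells had low summed levels in both groups. Of 11 endothelial markers 8 fell and 0 rose, with 5 falls in replicates 1 to 3 alone, 1 rise with the replicate block and 1 without unsorted replicate 3. The endothelial sum was 22.7 to 61.3 CPM in sorted libraries and 57.6 to 127 CPM in unsorted ones. EMCN and PECAM1, surface proteins of vessels, fell by 2.27 ± 0.34 and 2.07 ± 0.34. Of 7 macrophage and myeloid markers 4 fell, or 2 in replicates 1 to 3 alone. CSF1R, the receptor macrophages need to survive, was at 0 in sorted replicates 1 to 3 and at most 0.288 CPM in replicates 4 to 6, against 1.51 through 2.84 to 5.15 CPM in unsorted libraries. CSF1R fell by 4.61 ± 0.57 and LAPTM5, a lysosomal protein of blood cells, by 3.18 ± 0.41. The sum of 15 myeloid features was 22.3 to 30.8 CPM against 38.2 to 96.5 CPM, and C1QC was at 0 in all sorted libraries. Of 6 lymphocyte markers 2 fell, the kinase gene LCK by 0.80 ± 0.22 among them, and CD3E, a T cell receptor component, rose by 1.21 ± 0.32. With the replicate block 2 lymphocyte markers rose. The lymphocyte list had a median of 0.36, and its sum was 13 to 20.6 CPM against 27.8 to 36.6 CPM. Glial and pituicyte features did not go down as a sum, which was 31.7 to 60.4 CPM in sorted and 29.9 to 44 CPM in unsorted cells and higher in sorted cells in 5 of 6 pairs. Of the 3 tested, S100B rose, and the water channel gene AQP4 and the glutamate transporter gene SLC1A3 fell by 0.84 ± 0.19 and 1.52 ± 0.27. Red blood cell features summed to at most 0.866 CPM in sorted libraries and 0.61 CPM in unsorted ones.

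**Figure D4:**
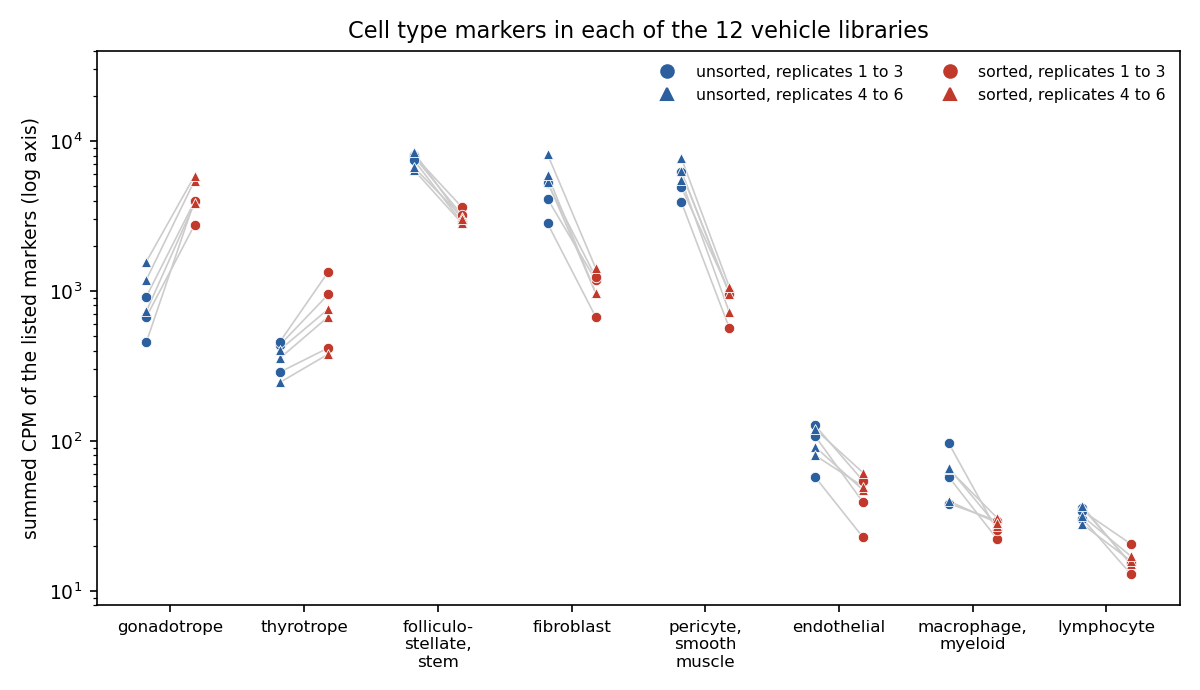
Summed CPM (log axis) of the listed markers of 8 cell types in each of the 12 vehicle libraries; grey lines join libraries of the same replicate number. Gonadotrope markers rise to 2760 to 5850 CPM in sorted libraries, while pericyte and smooth muscle markers fall from 3930 to 7730 CPM to 565 to 1060 CPM.

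Genes of the extracellular matrix mostly fell. Of 37 collagen, laminin and basement membrane genes 33 (89.2%) fell and 2 rose, with a median of -2.11. In replicates 1 to 3 alone 1 rose, and 25 fell beyond 2-fold in all libraries. FN1, fibronectin, was the most counted of all genes depleted beyond 2-fold. It ranged from 1760 through 2310 to 2840 CPM in sorted and from 11400 through 17000 to 21100 CPM in unsorted libraries, a fall of 2.81 ± 0.19 with no overlap. The laminin gene LAMA4 fell by 1.86 ± 0.11, COL3A1 by 2.45 ± 0.23, COL5A3 by 3.40 ± 0.45 and COL1A1 by 2.93 ± 0.42. The 2 that rose were LAMA1, an early laminin chain, by 2.39 ± 0.45, and COL15A1, a basement membrane collagen, from 16 ± 2.93 to 44.8 ± 19.6 CPM.

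Matrix glycoproteins, the enzymes that crosslink and cut them and the receptors that bind them moved with the collagens. Of 28 glycoprotein and proteoglycan genes 21 fell and 3 rose, with a median of -2.03. MFAP4, a microfibril protein gene, fell by 4.09 ± 0.52, to 5.64% of its unsorted level, and tenascin C (TNC), SPARC, LTBP1 and THBS1 fell, with differences of -3.29, -2.89, -2.70 and -2.11. Biglycan (BGN) differed by -3.29 ± 0.73 with overlapping groups. SMOC1, FIBIN and TGFBI, also secreted, fell, with differences of -3.46, -3.45 and -3.33. Of 33 proteases, inhibitors and crosslinking enzymes 20 fell and 4 rose. The collagenase gene MMP13 fell by 3.97 ± 0.49, the membrane protease gene MMP14 and the lysyl oxidase gene LOXL2 differed by -2.33 ± 0.12 and -2.92 ± 0.17, whereas another collagenase gene, MMP1, rose by 2.05 ± 0.23 and the inhibitor gene TIMP1 by 1.61 ± 0.30. TIMP1 averaged 621 ± 223 CPM in unsorted and 1892 ± 766 CPM in sorted cells, without overlap.

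Adhesion and cytoskeletal genes that couple cells to this matrix followed. Of 28 integrin and focal adhesion genes 23 (82.1%) fell and 2 rose. ITGB6, an epithelial integrin, fell by 2.66 ± 0.22, and the hyaluronan receptor CD44 and ACTN1, which crosslinks actin, differed by -2.11 ± 0.17 and -2.02 ± 0.11, with filamin A (FLNA) at -1.81 ± 0.14. TLN2 and ITGA8, a second talin and an integrin chain, rose by 1.01 and 1.02. Of 20 genes of the Hippo pathway and its YAP targets, which respond to cell spreading, 18 (90%) fell and 0 rose by the edgeR test, with a median of -1.58. The coactivators themselves were lower, YAP1 by 2.58 ± 0.17 and WWTR1 by 2.22 ± 0.16, as was AJUBA by 1.34 ± 0.10. Of the other abundant depleted genes, the insulin-like growth factor binding protein IGFBP2 fell by 2.59 ± 0.19 and annexin A2 (ANXA2) by 1.51 ± 0.19. PCSK7 was also among the 10 most counted, but it is the neighbour of TAGLN in the RefSeq annotation, both fell (-2.65 ± 0.22 and -2.71 ± 0.19), and its reads are uncertain because the strand setting is not given.

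Epithelial keratins of the basal type fell strongly. KRT5 ranged from 0.42 through 1.3 to 1.56 CPM in sorted and from 9.42 through 13.3 to 15 CPM in unsorted libraries, with the groups far apart. KRT5 fell by 3.55 ± 0.27, KRT14, its partner, by 3.38 ± 0.32, and KRT17 and KRT7 differed by -3.77 ± 0.50 and -2.75 ± 0.19. Of 26 keratin and cell junction genes 16 (61.5%) fell and 2 rose, and the rises came to 1 in 7 of 12 refits with 1 library dropped. The desmosomal cadherin gene DSC2 fell by 2.51 ± 0.20 and E-cadherin (CDH1) by 1.36 ± 0.16, while EPCAM, another epithelial adhesion gene, rose by 0.63 ± 0.12. The second rise was JUP, plakoglobin, by 0.50 ± 0.19, higher in 5 of 6 pairs; its call was lost without sorted replicate 4, 5 or 6 or unsorted replicate 1, 2, 3 or 6 (adjusted p up to 0.112).

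Developmental and growth signals were mostly lower. Of 26 Wnt pathway genes 20 (76.9%) fell and 2 rose, and 0 to 1 rose in 10 of 12 refits with 1 library dropped. The ligand WNT5A fell by 2.58 ± 0.22, the receptor FZD6 by 1.53 ± 0.15 and the nuclear effector TCF7L2 by 1.82 ± 0.19. Of 15 Notch pathway genes 7 fell and 3 rose, with members of both kinds among ligands: the receptor NOTCH2 fell by 1.99 ± 0.15 and the target HES1 by 1.83 ± 0.21, with the ligand JAG1 down by 1.23 ± 0.15. Those that rose were the ligands DLL1 and DLL4, by 1.51 ± 0.31 and 1.79 ± 0.30, and DTX1, by 1.90 ± 0.42. Of 45 growth factor and receptor genes 27 (60%) fell and 4 rose, with FGF1 lower by 2.77 ± 0.17, ERBB2 by 2.56 ± 0.17, TGFA by 2.62 ± 0.22 and IGFBP6 by 2.52 ± 0.15. Of 43 ephrin and axon guidance genes 20 (46.5%) fell and 9 rose, EPHB4 and EPHA2 (-2.29 and -2.23) among the falls and DCC and UNC5D among the rises. The adrenergic receptor gene ADRA1A fell by 3.52 ± 0.32 and the autophagy gene MAP1LC3C by 3.28 ± 0.26.

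Most cell cycle genes were lower in sorted cells. Of 41 tested, 36 (87.8%) fell and 1 rose (2 rose with the replicate block or without unsorted replicate 1), with a median of -1.27. CCND2, cyclin D2, ranged from 10.9 through 14.1 to 22.8 CPM in sorted and from 85.1 through 104 to 123 CPM in unsorted libraries. The groups lay far apart, and CCND2 fell by 2.81 ± 0.17, its partner kinase CDK6 by 2.47 ± 0.19, and the replication licensing gene CDC6 and the mitotic kinase AURKA differed by -2.23 ± 0.16 and -2.14 ± 0.22. The exception was GINS2, a replication fork gene, which rose by 0.99 ± 0.19. Genes that hold cells out of the cycle did not share 1 direction: RBL2, a retinoblastoma relative, and CDKN1B, the inhibitor p27, rose by 0.74 ± 0.09 and 0.67 ± 0.13, and of 18 such genes tested 6 rose and 7 fell.

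Inflammatory genes mostly fell, and no interferon-stimulated gene did by the edgeR test with all libraries. Of 25 inflammatory and NF-kappaB genes 15 (60%) fell and 2 rose, with a median of -1.19. The interleukin receptor IL1R1 fell by 2.21 ± 0.22, the cytokine IL18 by 2.45 ± 0.26, the prostaglandin synthase PTGES by 1.87 ± 0.18 and OSMR by 1.72 ± 0.17. CCL2, a monocyte chemokine, differed by -3.95 ± 0.84, but with an SD above its mean in unsorted libraries (138 ± 144 CPM) its groups overlapped. Of 29 interferon-stimulated genes 10 (34.5%) rose and 0 fell, with a median of 0.60. They numbered 16 and 2 with the replicate block, and 6 rose without sorted replicate 4 or without unsorted replicate 3. Leaving out sorted replicate 1 or 5 or unsorted replicate 4 passed 1 as lower. The signal transducer STAT2 rose by 0.81 ± 0.12 and the RNA sensor DDX58 by 1.37 ± 0.27.

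Housekeeping groups had medians near that of all genes. Of 27 proteasome genes 2 rose (1 in 9 of 12 refits with 1 library dropped) and 6 fell, shares below the background, with a median of -0.01, and PSMD8 fell by 0.68 ± 0.11. Of 27 nuclear genes of oxidative phosphorylation 1 rose and 6 fell, with a median of -0.11. In the fit with the block 3 rose, and without unsorted replicate 3 the rises numbered 2. Of 31 lysosome and autophagy genes 10 rose and 7 fell, among them ATP6V0A1, a proton pump subunit also used to acidify granules, higher by 1.10 ± 0.09, and GABARAPL1, by 0.90 ± 0.08. Of 23 genes of the unfolded protein response 7 rose and 2 fell, with ATF4 and HERPUD1 higher by 0.47 and 0.63 and CREB3L2 lower by 1.09; in replicates 1 to 3 alone 5 fell. Of 28 cholesterol and fatty acid genes 7 rose and 6 fell, or 14 and 7 with the block, with ACACA higher by 0.70 and FADS2 lower by 1.33. FTH1, the iron store ferritin, fell by 1.54 ± 0.21.

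RNA of the tested ribosomal protein genes and of mitochondrially encoded genes differed in opposite directions. Only 16 of 62 listed ribosomal protein genes had a symbol here, so most of them are not covered. Of 16 ribosomal protein genes with a symbol 12 fell and 1 rose (0 in 7 of 12 refits with 1 library dropped), RPL29 by 0.84 ± 0.17 and RPSA by 0.57 ± 0.12 among the falls, but 3 fell in replicates 1 to 3 alone and 7 without unsorted replicate 6. Their share of counts was 0.686 ± 0.0485% in sorted and 0.900 ± 0.132% in unsorted libraries (SD, n = 6; exact two-sided permutation test, adjusted p = 0.013), lower in 6 of 6 pairs. Of 10 mitochondrially encoded genes 5 rose and 0 fell by the edgeR test, ND6 by 1.20 ± 0.29 and CYTB by 1.26 ± 0.37, and 3 rose without sorted replicate 2 or unsorted replicate 4, 5 or 6. The part of these differences in the other results was not tested.

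**Figure D5:**
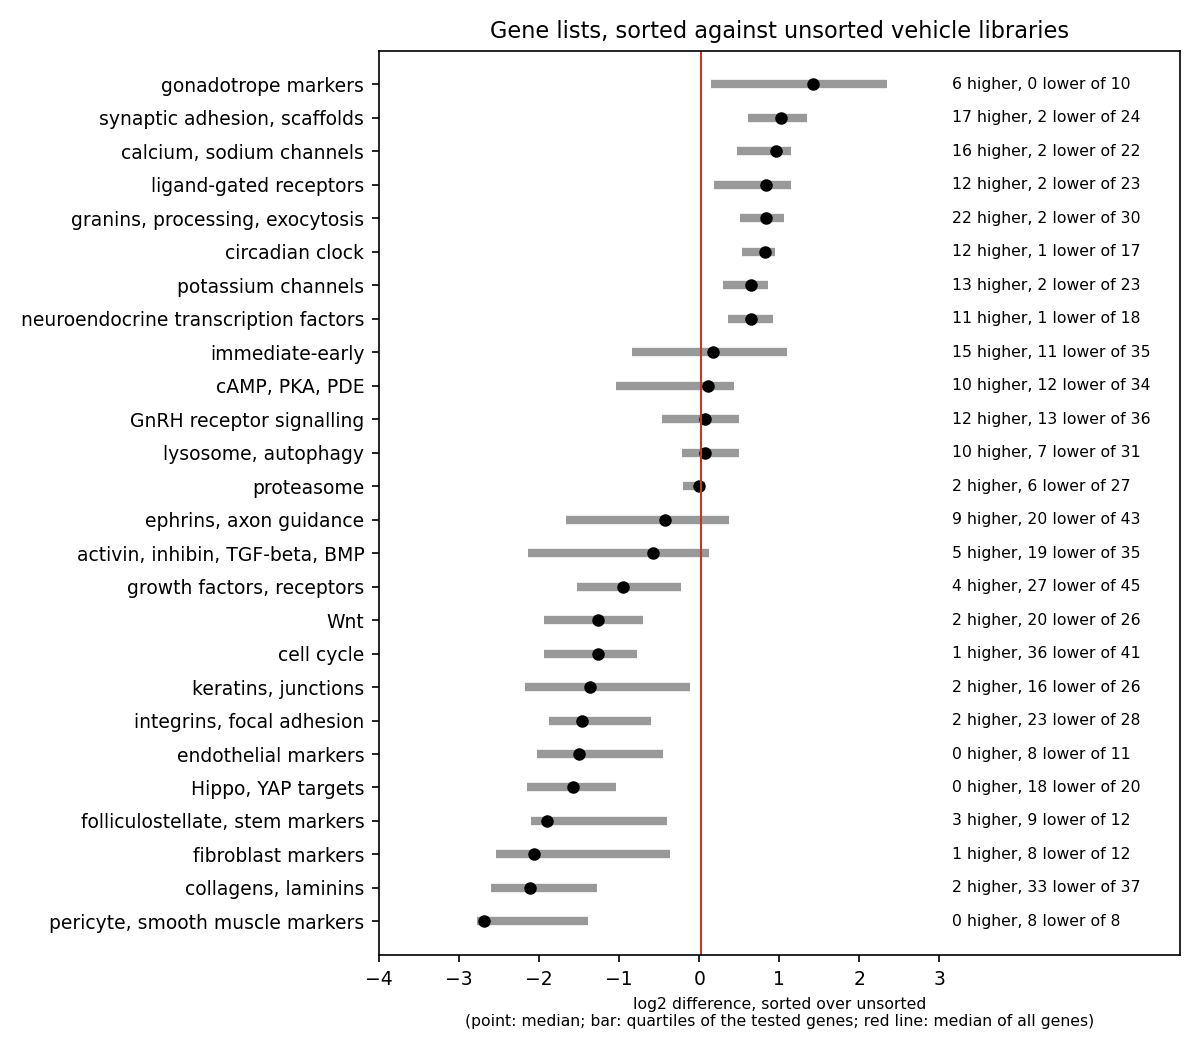
Median (point) and quartiles (bar) of the log2 difference of sorted over unsorted vehicle libraries for 26 gene lists, with the number of tested genes that passed in each direction; the red line is the median of all tested genes, 0.02. Gonadotrope, synaptic, channel, secretory and clock lists lie above it, and collagens, pericyte and stem cell lists lie about 2 log2 units below.

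The same contrast in the E2-treated libraries gave the same picture for the large differences. All 1192 genes beyond 2-fold with vehicle had the same sign with E2, and 1190 of them passed the edgeR test there. Of 15134 genes tested over all 24 libraries, the difference between the contrasts passed for 4 (0.0264%), by edgeR's test of the interaction. At an unadjusted p under 0.05 it passed for 236, fewer than chance alone gives at that threshold. The unpaired test was therefore strict here, and its few calls do not show that E2 left the contrast unchanged. With the replicate block 70 passed after adjustment, 50 higher and 20 lower with E2. Without a filter on low counts, in replicates 1 to 3 alone or in replicates 4 to 6 alone 0 passed, and with either of the other scalings 3 did. For each of the 4 the log2 difference of sorted over unsorted cells was more positive with E2 than with vehicle. KREMEN1, a receptor for Wnt inhibitors of the Dickkopf family, was 1.84 lower in sorted vehicle and 0.71 lower in sorted E2 libraries than in their unsorted counterparts (difference 1.13 ± 0.20, adjusted p = 0.0455). CABLES2 went from -0.62 to 0.75, the tubulin-modifying gene TTLL4 from -0.40 to 0.23 and the lysosome adaptor PLEKHM1 from -0.05 to 0.76 (adjusted p = 0.0315 for each).

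The authors' deposited table of this comparison holds 17082 features, of which 7345 passed at a false discovery rate under 0.05, 4074 as lower in sorted cells and 3271 as higher. Of these, 6479 are among the 7267 that passed here, and all 6479 have the same direction. In the authors' deposited table the log2 column is of unsorted over sorted libraries and its fold column has the opposite sign.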

How the data were processed

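Counts as deposited give reads per gene from featureCounts 1.5.1, per the submitters' processing notes. No source used here gives the aligner, the build or the strand setting. The authors' deposited table gives log2 fold changes, p-values with false discovery rates, and a signed fold column (a score), per the file headers, and is named for edgeR; it was only compared. Of 27054 features, 14297 carry a gene symbol; 1226 of the 7267 genes called have none and are counted but not named. Each of the 12 vehicle columns was deposited in 2 tables; the copies had 0 unequal values.

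Counts were tested with edgeR 4.0.16 in R 4.3.3 (TMM scaling, filterByExpr, robust glmQLFit, two-sided glmQLFTest; glmTreat against a log2 change of 1 for "beyond 2-fold"), 6 against 6, and over all 24 libraries for the E2 interaction. Adjusted p-values are over all genes tested. CPM use TMM-scaled totals; SE is the log2 difference over the square root of F. Pair ratios use a pseudocount of 0.5 CPM and principal components a prior count of 2. Shares were tested by exact permutation. On simulated counts of this comparison (14349 genes) the test recovered 63.9% of changes of 1 and 95.8% of changes of 2 on the log2 scale. Totals of 5032744 to 37042448 counts limit genes near 1 CPM most; reads are not independent molecules.

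Equal replicate numbers pair the libraries: centred by group, same-numbered libraries correlated at 0.291 to 0.523 (Pearson r over genes) and others at most at 0.197, although no label names a shared culture. The main fit leaves this pairing out, so its calls, SE and p-values are unpaired, and the block passed 9198 genes against 7267. For single genes and lists, the blocked fit is given where it changes a call or a count by over 1.5 times. For the 2-fold test of single genes only examples are given.

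Named genes are the 5 gonadotrope markers, the 15 largest rises and falls with 10 CPM in the higher group and 6 of 6 pairs alike, the 10 most counted genes beyond 2-fold each way, up to 6 members per list with the smallest p among 55 lists, and the interaction genes; the text gives a selection. Members named because they went against their list, and DCC, UNC5D, NRXN3, DUSP2, NPAS4, SYT1, SNAP25, ZFP36, CTGF, IER3, CDH1, ADCY1, ADCY5 and the gonadotrope markers that did not pass, were chosen after their values were seen. Members and lists were chosen with earlier results of these data known. Alternatives were the block, RLE (DESeq2's size factors) and upper quartile scaling, 2 other filters, DESeq2 1.42.0, each depth set, each library left out, all 24 libraries and, added after seeing the data, counts thinned to the smallest library. Sequences are not given here, and some genes are not reported here.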

Additional observations from a re-analysis of the deposited data

Results flagged for a closer look

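Among 54 groups of 6 libraries, for the genes given library by library and the 3 shares of counts, 3 held a library that stood apart by Dixon's test, where chance gives about 2.7. GNRHR in sorted replicate 1 was at 10.2 CPM where the other sorted libraries had 3.64 to 5.46. CSF1R in sorted replicate 6 was at 0.288 CPM, above the other sorted libraries at 0 to 0.105. The share of counts in 7 hormone genes in sorted replicate 6 was 8.54%, below the 15.9 to 19.7% of the others; unsorted replicate 6, which shares its number, was likewise the lowest of its group, at 4.61% where the others had 7.5 to 11.7%.

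The sorted against unsorted difference itself differed between E2 and vehicle, by edgeR's interaction test, for TTLL4 (0.63), PLEKHM1 (0.80), KREMEN1 (1.13) and CABLES2 (1.38 on the log2 scale), each more positive with E2.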

How the results depend on the processing

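Alternatives for the genes called gave 6170 to 7368 with 1 library left out each, 6387 after thinning and 8134 with DESeq2, against 7267. The widest moves were 9198 with the replicate block, 5655 in replicates 1 to 3 alone and 8594 in replicates 4 to 6 alone. Genes beyond 2-fold numbered 748 in replicates 1 to 3 and 1890 in replicates 4 to 6, against 1192 (996 to 1318 with 1 library left out). The E2 interaction passed 4 genes, 70 with the replicate block, and 0 without a filter or in either depth set. Shares fell below the threshold in the depth sets, where 3 against 3 libraries cannot pass: 8.58 and 5.66 points for the hormone genes (adjusted p = 0.15 and 0.3, exact permutation test), -0.0938 and -0.334 for ribosomal proteins (0.2 and 0.3), and 7.58 and 4.91 for the 20 most counted genes (0.15 and 0.3). Without PRL the hormone share differed by 2.32 points (0.224) and that of the 20 most counted genes by 1.8 (0.273), against 6.25. Of 221 genes named, 195 kept their side of the threshold and direction in every setting. The 7 reversals were in genes that had not passed: INHA (-0.299 to 0.008 with 1 library left out, 0.004 thinned), ISL1 (-0.098) and PITX1 (0.002) in replicates 1 to 3, and PLEKHM1 (0.067 in replicates 1 to 3, -0.104 to 0.002 with 1 library left out). Apart from the block values given above, pairing changed the call of GH alone among the genes named, in the test without the 2-fold bound. In the 2-fold test pairing changed more calls of named genes. SLPI, PI3, FSHB and LHB, for example, passed it only with the block, and FTH1 only without the block. The causes were not tested, and the 3 shallow libraries of each group limit low genes.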
